A study of Mus musculus with 6 samples.

Results

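The cytosolic ribosomal protein genes encode the protein subunits of the large and small subunits of the ribosome. They were taken from the count table by symbol: every Rpl or Rps symbol with a number, plus Rplp0, Rplp1, Rplp2 and Rpsa, leaving out the Rps6 kinases, symbols with -ps and entries with under 10 counts over the 6 libraries. This gave 80 genes of 24421, 48 of the large subunit and 32 of the small. Another 3 symbols fitted the pattern but had too few counts: Rpl10l and Rpl26 with 0 counts and Rpl39l with 2. Among the 80 genes are 5 paralogs of another subunit gene (Rpl3l, Rpl7l1, Rpl22l1, Rps27l and Rps4l) and the tag gene itself, Rpl22. The pattern misses 5 measured subunit genes, among them Rps4x, Fau, Gnb2l1 (also called Rack1) and Rpl36al, which were read as a separate list.

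The study used RiboTag mice, in which Cre recombinase switches a copy of Rpl22 to a version with an HA tag, so that ribosomes of recombined cells can be pulled down with HA antibody. Control mice were NG2CreERTM;Rpl22HA/+ and the knockout mice, called icKO, were NG2CreERTM;Ank3F/F;Rpl22HA/+, in which Ank3, encoding the membrane scaffold protein ankyrin-G, is also lost from recombined cells. All mice therefore carried the NG2-driven, tamoxifen-dependent Cre and 1 tagged Rpl22 allele, and all received tamoxifen at 100 mg/kg per day for 5 days from 8 weeks of age and were analysed 1 month later. Whole brains of 3 mice were pooled per sample, and 10% of the cleared homogenate served as input for comparison with the immunoprecipitation (IP). Each genotype had 1 input library and 2 IP libraries. NG2 is made by oligodendrocyte precursors and also by pericytes, so that the driver is not limited to the labelled oligodendrocytes.

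Most ribosomal proteins are present in a single copy per ribosome, and cells make them in step. The transcripts are short and abundant, and most begin with a run of pyrimidines at the very 5′ end, the 5′ terminal oligopyrimidine (TOP) tract. Through this tract, mTORC1 signalling and the RNA-binding protein Larp1 control how much of this mRNA sits on ribosomes. In brain, differentiating oligodendrocytes are known for a high demand for protein synthesis during myelination.

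The sequence around the start of transcription is shown for members the results turn on, because it is the feature by which translation of this family is controlled. Bases come from the RefSeq promoter table for GRCm38.p6, each run is written 5′ to 3′ on the strand of the gene, and capitals mark a tract. A tract was any run of at least 8 pyrimidines (C or T) that starts with C, looked for on the gene's strand only, within 50 bases before to 50 after a RefSeq start.
Rps6: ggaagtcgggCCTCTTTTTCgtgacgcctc
Rplp2: gcgtcagcgtCTTCCTTTCgccgccggacg
Rpl28: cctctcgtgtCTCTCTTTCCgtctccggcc
Rpl18: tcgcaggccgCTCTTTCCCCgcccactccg
Rpl13: cgtgacgtcaCTTCCCTTTCgcctgatttt
Rps26: agccgccggatCCTCTTTCgagtcttggct
Rpl22: ccgtctgaCTCCTCCCTTTCCCgacagccg
Rpl22l1: gcaagcccgttCTCTTCCCacggctgcagc
Rplp0: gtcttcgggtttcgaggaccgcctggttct
Rpsa: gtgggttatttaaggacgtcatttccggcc
These windows lie at chr4:86857349-86857378 (minus strand) for Rps6, chr7:141447637-141447666 (plus) for Rplp2, chr7:4792953-4792982 (plus) for Rpl28, chr7:45718062-45718091 (plus) for Rpl18 and chr8:123102324-123102353 (plus) for Rpl13. The others lie at chr10:128626484-128626513 (minus) for Rps26, chr4:152325679-152325708 (plus) for Rpl22, chr3:28805500-28805529 (plus) for Rpl22l1, chr5:115559452-115559481 (plus) for Rplp0 and chr9:120127751-120127780 (plus) for Rpsa. The Rpl22 and Rpl13 tracts lie wholly upstream of the RefSeq start, and another RefSeq start of Rpl22 held no tract. Rplp0 and Rpsa hold no such run in this window, which says only that these letters are absent near the RefSeq start. Of the 80 members, 59 matched the promoter table by symbol, and 50 of those (84.7%) held a tract at one or more of their starts, against 32.0% of all 27025 symbols in the table.

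The libraries held 18968806 to 23930812 counts, and 3 counts, the upper limit that a count of 0 allows, were worth 0.125 to 0.158 CPM. Levels are CPM (the count scaled by library size) with TMM scaling over the 6 libraries, a scaling that assumes most genes do not change. The IP libraries are labelled biological replicates, without a statement that separate mice went into each pool, so p-values reflect only the spread between these samples, and that spread may be technical. Over the members, chi-square per degree of freedom, which is near 1 for sampling noise alone, was 2.36 for the pair of control IPs and 1.77 for the pair of icKO IPs. The labelled cell type was checked with summed marker levels, and no measured marker was at 0 in every library. Precursor markers (10 genes) summed to 9163 and 9259 CPM in the control IPs and 7895 and 7995 CPM in the icKO IPs, against 431.6 and 479.3 CPM in the control and icKO inputs. Markers of mature oligodendrocytes (12 genes) summed to 25440 and 25620 CPM in the control IPs, 15650 and 15550 CPM in the icKO IPs, and 3338 and 3294 CPM in the inputs. Pericyte and smooth muscle markers (8 genes) were also higher in the IPs, at 1593 and 1598 CPM in control and 812.7 and 830.1 CPM in icKO, against 108.2 and 100.7 CPM in the inputs. Neuron markers (10 genes) were lower in the IPs, at 1693 to 1870 CPM against 8141 and 8423 CPM.

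Ribosomal protein genes took a smaller part of the RNA on tagged ribosomes than of whole-brain RNA, and a smaller part again in icKO. They held 1.209% of all counts in the control input (95% Wilson interval 1.205 to 1.214%) and 1.064% in the icKO input (1.06 to 1.069%). In the control IPs the share was 0.5996% and 0.6101%, and in the icKO IPs it was 0.4512% and 0.4645%, each with an interval of at most 0.0033 points to either side. Both icKO IPs lay below both control IPs, and every IP lay below both inputs. The IP means were 0.6048% ± 0.00742 (SD, n = 2) in control and 0.4578% ± 0.0094 (SD, n = 2) in icKO, a ratio of 0.757, while the icKO input held 0.88 times the share of the control input. An exact two-sided permutation test of 2 against 2 libraries gave p = 0.333, the smallest it can give. Both subunits contributed: the mean share of the large subunit genes went from 0.3997% to 0.3017% between IPs and that of the small subunit genes from 0.2051% to 0.1562%. Intervals cover counting error only.

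**Figure D1:**
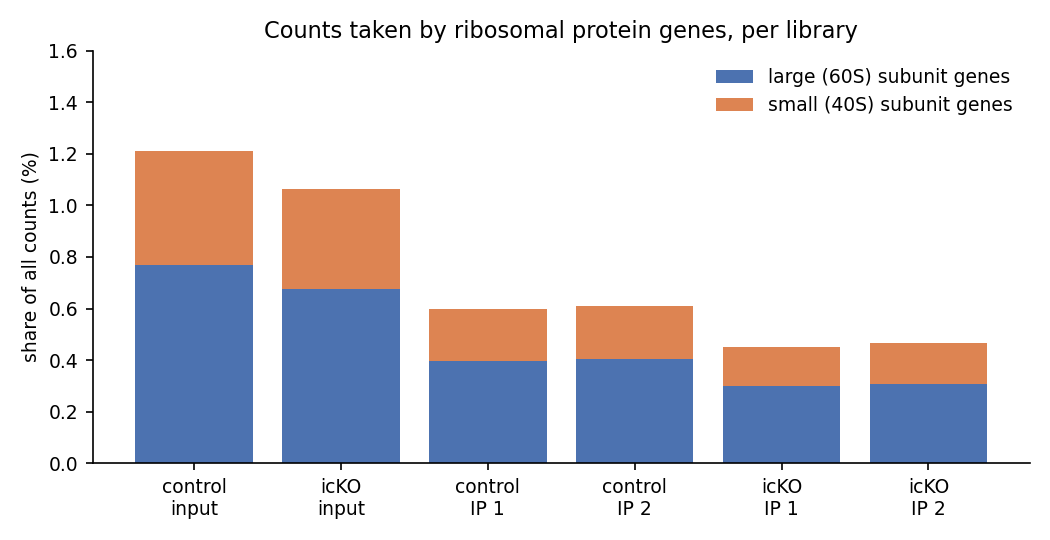
Share of all counts (%) taken by ribosomal protein genes in each of the 6 libraries, with large subunit genes stacked under small subunit genes. The inputs stand at 1.209% and 1.064%, the control IPs at 0.5996% and 0.6101%, and the icKO IPs at 0.4512% and 0.4645%.

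The first question was which ribosomal protein transcripts were carried by tagged ribosomes relative to whole brain, asked in a fit to all 6 libraries that allowed for genotype. Of the 78 members tested, 74 were lower in the IP and 0 higher (edgeR quasi-likelihood test, Benjamini-Hochberg adjusted), with a median log2 change of -1.13. Over all 15451 genes tested, 35.1% were lower, 34.8% were higher and the median was 0.01. At an unadjusted p under 0.05, 2 members were higher, and DESeq2 called 73 lower and 0 higher (33.3% and 33.3% of all genes). In 72 members all 4 IPs lay below both inputs, a pattern shown by 37.1% of all genes tested, and 45 members were lower by over 2-fold. Within control, 72 of 79 members were lower and 0 higher (33.9% and 34.4% of all genes), with a median of -1.01. Within icKO, 74 of 79 were lower and 1 higher (34.8% and 34.7% of all genes), with a median of -1.18. These within-genotype calls set 2 IPs against 1 input, which is assumed to vary like the IP pairs. When a smooth trend on transcript length was removed from each library, 66 of 78 members were lower and 5 higher over both genotypes, against 34.0% and 36.2% of all genes, and the median was -0.54. In bulk RNA of this kind, fewer cells of a type and less RNA per cell cannot be told apart. The neuron markers were lower in the IPs as well, and their part in this result was not tested.

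Rps29, a zinc-binding protein of the small subunit, was the member with the lowest IP to input ratio. It measured 67.08 and 66.73 CPM in the control and icKO inputs, against 19.80 and 18.39 CPM in the control IPs and 13.07 and 15.47 CPM in the icKO IPs. The 4 IPs were far below both inputs and the icKO IPs were below the control IPs. Its log2 change from input to IP was -2.02 ± 0.11 (SE), with an adjusted p of 1.39e-07. Rps21, another small subunit protein, followed at -1.95, and the large subunit genes Rpl39, Rpl32, Rpl41, Rpl12 and Rpl17 lay between -1.80 and -1.61. All 7 were still lower in the IP with the length trend removed, with Rps29 at -1.18 and the others between -1.30 (Rpl12) and -0.98 (Rpl41).

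The stalk of the large subunit, made of the protein of Rplp0 and of pairs of the Rplp1 and Rplp2 proteins, recruits the elongation factors. Rplp1 was at 338.7 and 294.2 CPM in the control and icKO inputs, 115.2 and 112.3 CPM in the control IPs and 87.33 and 96.07 CPM in the icKO IPs. Rplp2 was at 188.0 and 178.8 CPM in the inputs, 91.09 and 94.82 CPM in the control IPs and 67.40 and 71.82 CPM in the icKO IPs. Rplp0 was at 174.5 and 156.9 CPM in the inputs, 91.62 and 93.54 CPM in the control IPs and 76.30 and 77.29 CPM in the icKO IPs. For each of the 3 stalk genes the inputs, the control IPs and the icKO IPs formed 3 ranges without overlap, in that order. The IP to input change was -1.63 for Rplp1, -1.19 for Rplp2 and -0.98 for Rplp0 on the log2 scale, with the largest adjusted p at 8.57e-07. These changes were -0.88, -0.40 and -0.67 with the length trend removed, and each still passed (largest adjusted p 0.000331).

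Rpsa, a small subunit protein also known as the laminin receptor, was among the most counted members, at 502.4 and 457.1 CPM in the inputs, 229.8 and 233.9 CPM in the control IPs and 170.1 and 184.7 CPM in the icKO IPs. Its IP to input change was -1.25 ± 0.08 (log2, SE; adjusted p = 3.19e-07). Rps6, whose protein is the classic substrate of the S6 kinases, was at 206.9 and 173.6 CPM in the inputs, 112.3 and 113.5 CPM in the control IPs and 99.82 and 100.7 CPM in the icKO IPs. Its change was -0.84 ± 0.06 (adjusted p = 1.32e-06), and -0.34 (0.00216) with the length trend removed. In both genes every IP was below both inputs.

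A few members departed from this pattern. Rpl13, a large subunit protein, had nearly the same level in the control input (265.0 CPM) and the control IPs (260.1 and 254.2 CPM), whereas its icKO input was at 234.5 CPM and its icKO IPs at 180.3 and 190.0 CPM. Its IP to input change was -0.04 in control (adjusted p = 0.345) and -0.34 in icKO, and -0.20 over both (adjusted p = 0.0467), a call that was lost on leaving out any 1 IP (-0.22 to -0.16) or the icKO input (-0.05). Rpl18, also of the large subunit, was similar in level, at 62.81 CPM in the control input and 59.22 and 56.42 CPM in the control IPs, with an icKO input of 58.91 CPM and icKO IPs of 35.74 and 40.99 CPM. Its IP to input change was -0.12 in control and -0.62 in icKO. Over both genotypes Rpl18 was called lower, at -0.37 (adjusted p = 0.0131). In both genes the icKO IPs lay below both inputs, while at least 1 control IP lay above the icKO input. The direction turned with the length trend removed, and both were called higher in the IP, Rpl13 at 0.36 (adjusted p = 0.000635) and Rpl18 at 0.25 (0.0304). Rpl18 overlaps Sphk2 on the opposite strand, and whether strand was used in counting is not given in the sources used here.

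The paralogs were mixed. Rpl7l1, whose yeast counterpart acts in large subunit assembly, was at 31.70 and 33.00 CPM in the inputs and between 31.02 and 35.47 CPM in the IPs, and its change of 0.04 did not pass (adjusted p = 0.661). Rps27l, a paralog of Rps27 induced by p53, was at 1.453 and 1.604 CPM in the inputs and between 2.090 and 2.624 CPM in the IPs. All 4 of its IPs were above both inputs, with a log2 change of 0.61 that did not pass (adjusted p = 0.0561). Both were called higher in the IP with the length trend removed, Rpl7l1 at 0.36 (adjusted p = 0.0019) and Rps27l at 1.36 (0.000828). Rpl22l1, the paralog that can replace Rpl22 in the ribosome, fell: it was at 16.48 CPM in each input, 6.919 and 5.787 CPM in the control IPs and 7.715 and 6.187 CPM in the icKO IPs, a log2 change of -1.32 ± 0.14 (adjusted p = 1.36e-05), or -0.61 (0.00417) with the length trend removed. Rps4l, annotated as a transcribed processed pseudogene, was at 14.53 and 11.86 CPM in the inputs, 11.55 and 11.04 CPM in the control IPs and 7.072 and 6.629 CPM in the icKO IPs. Rpl3l, the paralog of striated muscle, had 3 to 10 counts per library.

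**Figure D2:**
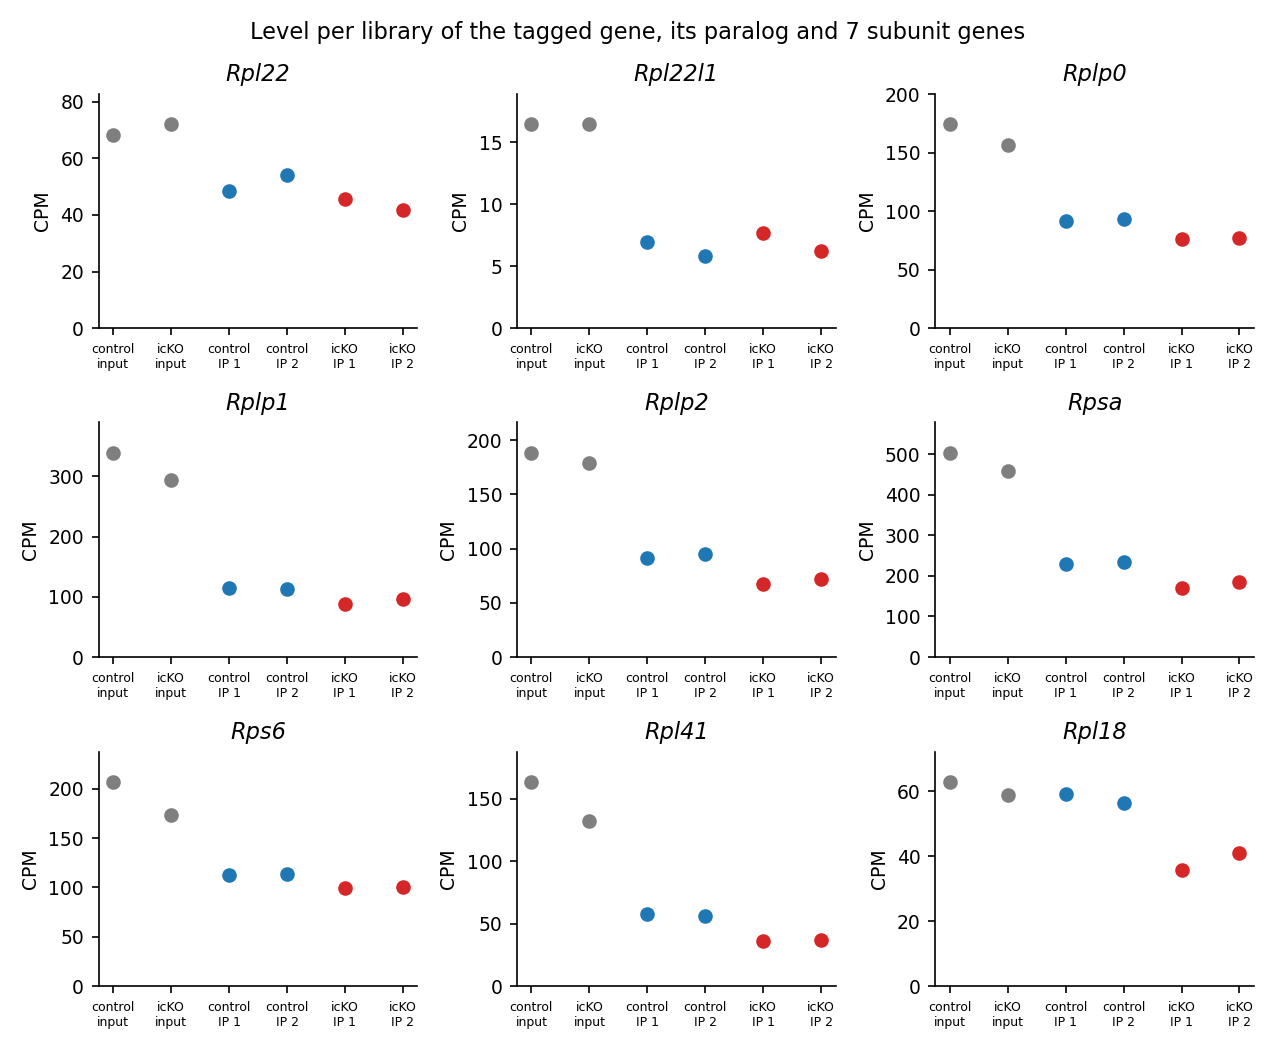
Level (CPM, linear axes from 0) in each library of the tagged gene Rpl22, its paralog Rpl22l1 and 7 further members; each point is 1 library. In Rplp0, Rplp1, Rplp2, Rpsa, Rps6 and Rpl41 the inputs are highest and the icKO IPs lowest, while the Rpl22l1 IPs of both genotypes overlap.

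Very few counts fell on 4 members, Rpl30, Rpl34, Rpl3l and Rps27, each with under 100 counts over all libraries. For Rps27 the inputs had 11 (control) and 3 (icKO) counts, the control IPs 16 and 13, and the icKO IPs 18 and 23. Without the length correction its IP to input change passed in icKO alone (log2 2.89), which rests on the 3 counts of the icKO input. With the length trend removed it passed over both genotypes, at 2.19 (adjusted p = 0.00893). Near-identical copies are a limit for the whole family. In the annotation used here, 74 of the 80 members had at least 1 transcript of another gene that matched theirs at 95% identity or more. The match had to be at least 80% as long as the coding part, but could lie anywhere in the transcript. How the counting treated reads that fit several places can therefore set a member's level.

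The members differed widely in level. Per kilobase of annotated transcript, mean levels in the control IPs ran from 0.1256 CPM per kilobase for Rpl30 to 329.7 for Rpl13. Rpl13 was followed by Rpl19 at 283.6, Rplp1 at 228.0, Rpl8 at 209.7 and Rplp2 at 207.0 CPM per kilobase. In the control input the order among these 5 was different: Rplp1 stood first at 678.7 CPM per kilobase, followed by Rpl19 at 454.7, Rplp2 at 418.6, Rpl8 at 344.1 and Rpl13 at 339.7. The lowest after Rpl30 were Rpl3l, Rpl34, Rps27 and Rps27l, at 0.1666, 1.289, 1.885 and 5.073 CPM per kilobase in the control IPs. Annotated lengths are from a gene annotation that may not be the one used for counting.

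The design's main question was how loss of ankyrin-G alters the RNA carried by tagged ribosomes, read from the 2 icKO and 2 control IPs. Of 78 members tested, 69 fell in icKO and 0 rose (edgeR quasi-likelihood test, Benjamini-Hochberg adjusted), with a median log2 change of -0.32, equal to 0.803-fold. Among all 15069 genes tested, 25.2% were lower, 22.1% were higher and the median was 0.00. At an unadjusted p under 0.05, 0 members were higher, and DESeq2 called 56 lower and 0 higher (18.3% and 15.7% of all genes). Both icKO IPs lay below both control IPs in 74 of 78 members, against 36.9% of all genes. In the large subunit 42 of 46 genes fell, with a median of -0.31, and in the small subunit 27 of 32 fell, with a median of -0.33. The 5 subunit genes that the pattern misses also fell, all 5, with a median of -0.29. Among them, Rpl36al fell by 0.46, Rps4x by 0.29, Fau by 0.25 and Gnb2l1 by 0.19. With a trend on transcript length removed, 1 of the 5 (Gnb2l1, -0.17, adjusted p = 0.0113) was still called, and Fau stood at 0.10 (0.148).

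Transcript length moved with this result. The members' median annotated transcript length was 756 bases against 2847.5 for all tested genes, and over the 14492 tested genes with a length, the log2 change between genotypes correlated with length (Spearman rho 0.192, all from the same 4 libraries). When a smooth trend on length was removed from each library, 21 of 78 members were lower and 5 higher, and the median was -0.06, against 22.2% lower and 21.9% higher of all genes. All 21 were among the 69. This step used 1 annotated length per gene, from 345 to 5130 bases (Rps15a) among the members. Rps20, with 3706 bases, was among the 21. Where the annotated length is not that of the RNA measured, the correction is off. Other tested genes with a transcript of at most 1000 bases had a median of -0.15 before this step, with 374 lower and 142 higher of 1194. What the length trend stands for was not tested. When libraries were instead scaled to the mature oligodendrocyte markers, which were themselves lower in the icKO IPs, 73 members were higher and 0 lower with a median of 0.42. Of all genes, 86.3% were higher and 0.551% lower under that scaling. That scaling moved the median of all genes to 0.74, and the members stayed 0.32 below it. The part of the lower oligodendrocyte markers in the members' change was not tested.

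Rpl22 carries the tag, and the counts do not tell its tagged from its untagged transcripts. It lies at chr4:152325742-152334071 on the plus strand with 4 exons. It was at 68.35 CPM in the control input, 72.13 CPM in the icKO input, 48.34 and 54.02 CPM in the control IPs and 45.65 and 41.88 CPM in the icKO IPs. The IP groups did not overlap, and Rpl22 was 1 of 5 members whose icKO input was above the control input. The IP means were 51.18 ± 4.02 CPM in control and 43.76 ± 2.67 CPM in icKO (SD, n = 2), a log2 change of -0.22 ± 0.07 (SE, adjusted p = 0.00779). Without control IP replicate 2 it was -0.14 (adjusted p = 0.189), without icKO IP replicate 2 it was -0.16 (0.0866), and with the length trend removed -0.14 (0.0892), so the call for Rpl22 did not hold in these settings. Its paralog Rpl22l1, whose level Rpl22 protein is known to restrain, gave 0.14 ± 0.17 (adjusted p = 0.525) with overlapping groups.

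The largest falls among well-counted members were in Rps4l, Rpl41 and Rpl18. Rpl41, which encodes a very small basic protein of the large subunit, was at 163.3 and 132.2 CPM in the inputs, 57.40 and 55.72 CPM in the control IPs and 36.00 and 36.90 CPM in the icKO IPs. The gap between the IP groups was many times the gap within them. The log2 change was -0.63 ± 0.07 (SE, adjusted p = 1.13e-09), and it was -0.29 (0.000348) with the length trend removed. Rps4l fell by 0.72 on the log2 scale (adjusted p = 9.05e-05) and Rpl18 by 0.59 (1.26e-08). Both were also lower with the length trend removed, at -0.44 for Rps4l and -0.28 for Rpl18. Rpl32 (-0.52), Rps26 (-0.51) and Rpl28 (-0.50) also fell, of which Rpl32 alone was not called with the length trend removed (-0.17, adjusted p = 0.106). Rpl34, with 3 to 23 counts per IP, had an estimate of -0.53 that did not pass (adjusted p = 0.53).

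Each stalk gene fell in icKO, and so did Rpsa and Rps6. Rplp2 changed by -0.41 ± 0.05 (log2, SE; adjusted p = 5.06e-08), Rplp1 by -0.31 ± 0.05 and Rplp0 by -0.27 ± 0.05. None of the 3 was called with the length trend removed, where Rplp2 was at -0.05, Rplp1 at 0.04 and Rplp0 at -0.10. Rpsa fell by 0.38 ± 0.04 (adjusted p = 1.82e-10), and its change of -0.25 with the length trend removed passed (1.72e-07). Rps6 fell by 0.17 ± 0.04 (adjusted p = 0.00221) and stood at 0.09 with the trend removed (0.0959). Of these 5 genes, Rpsa alone was called under both settings.

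Some members showed a smaller change between genotypes. In Rps24, Rps15a, Rpl9, Rps19 and Rpl7l1 both icKO IPs still lay below both control IPs. Rps24, a small subunit protein mutated in some cases of Diamond-Blackfan anaemia, was at 115.5 and 116.3 CPM in the control IPs and 107.5 and 112.4 CPM in the icKO IPs, a log2 change of -0.07 ± 0.04 (adjusted p = 0.175). Rps15a (-0.08), Rpl9 (-0.09), Rps19 (-0.13) and Rpl7l1 (-0.16) did not pass either, with adjusted p from 0.0793 to 0.437. Rpl10, which joins the large subunit late in its assembly, fell by 0.15 (adjusted p = 0.0354), a call lost without control IP replicate 1 (-0.09, 0.342) or icKO IP replicate 1 (-0.11, 0.184). Rpl10 stood on the other side of 0 with the length trend removed, at 0.13 (adjusted p = 0.0746). Without control IP replicate 1, Rps19 passed at -0.23 (0.0416). With the length trend removed, 5 members were higher in icKO: Rpl9 at 0.21, Rps15 at 0.18, Rpl31 at 0.15, Rpl22l1 at 0.48 and the sparsely counted Rps27 at 1.14. Of the 69 members that fell in the uncorrected comparison, 2 (Rps15 and Rpl31) were called higher after that step.

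**Figure D3:**
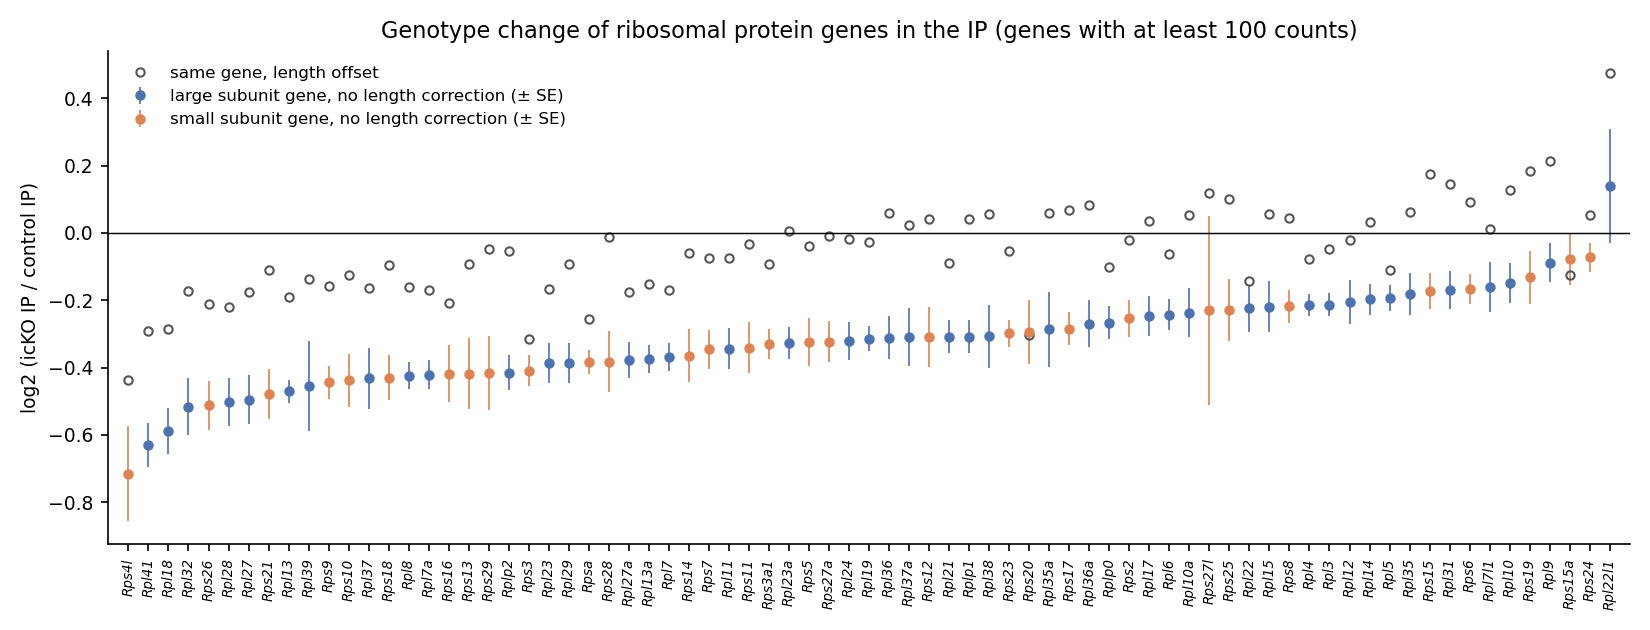
Log2 change between icKO and control IPs of tested members with at least 100 counts, in order of size, with its SE; filled points are uncorrected and open points have the length trend removed. The filled points run from -0.72 for Rps4l to 0.14 for Rpl22l1, and most open points lie nearer to 0.

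The inputs, with 1 library each, have no replicate check. Of the 79 members compared, 74 were lower in the icKO input by any amount, against 46.8% of all genes, with a median log2 ratio of -0.18 against 0.01 for all genes. By more than 1.2-fold, 13 were lower and 1 (Rpl34, with 3 and 7 counts) was higher, against 13.0% and 13.7% of all genes. Among well-counted members the lowest ratios were those of Rpl6 (-0.36), Rpl12 (-0.35), Rpl10a (-0.33) and Rpl32 (-0.31). For Rpl12 the 95% interval from counting error was -0.42 to -0.28.

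Whether the genotype change on tagged ribosomes was greater than that in whole brain was asked with an interaction term over the 4 groups, in which the lone inputs are assumed to vary like the IP pairs. Of 79 members tested, 24 had a lower log2 change in the IP than in the input and 0 a higher one (edgeR quasi-likelihood test, Benjamini-Hochberg adjusted), with a median of -0.19. Of all 15936 genes tested, 13.9% were lower, 9.67% higher, and the median was -0.01. At an unadjusted p under 0.05, 32 members were lower and 2 higher, and DESeq2 called 9 of 79 lower and 0 higher (7.08% and 4.34% of all genes). With the length trend removed the count was 2 lower, Rpsa among them, and 12 higher, with a median of 0.02, against 13.1% lower and 9.23% higher of all genes. The direction of this comparison for the family thus depends on the length correction.

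Among the members called, Rpl18 had the most negative interaction, -0.50 ± 0.11 (log2, SE; adjusted p = 0.00137): its IP fell by 0.59 while its input changed by -0.09. The sparsely counted Rpl34 had a lower estimate, -1.81 ± 1.59, that did not pass (adjusted p = 0.443). Rpl28 followed at -0.44 (adjusted p = 0.00354) and Rps29 lay at -0.41 and Rpl8 at -0.35. None of these 4 was called with the length trend removed, where Rpl18 was at -0.26 (adjusted p = 0.0823) and the others between -0.22 and -0.14. Rpsa, at -0.25 (adjusted p = 0.00131), kept its call with the length trend removed, at -0.16 (0.0294). For Rpl22 the interaction was -0.31 (adjusted p = 0.0422), with its input slightly higher in icKO and its IPs lower. Leaving out control IP replicate 2 gave -0.22 and leaving out icKO IP replicate 2 gave -0.24, and neither passed (adjusted p = 0.191 and 0.0972). It was -0.26 (0.0843) with the length trend removed. The call for Rps29 was likewise lost without control IP replicate 1 (-0.36, adjusted p = 0.0726) or icKO IP replicate 1 (-0.30, 0.143). Rps24 lay at the other end among well-counted members, at 0.17 ± 0.06 (adjusted p = 0.0538), and passed without icKO IP replicate 1 at 0.20 (0.0188) and with the length trend removed at 0.25 (0.00262).

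**Figure D4:**
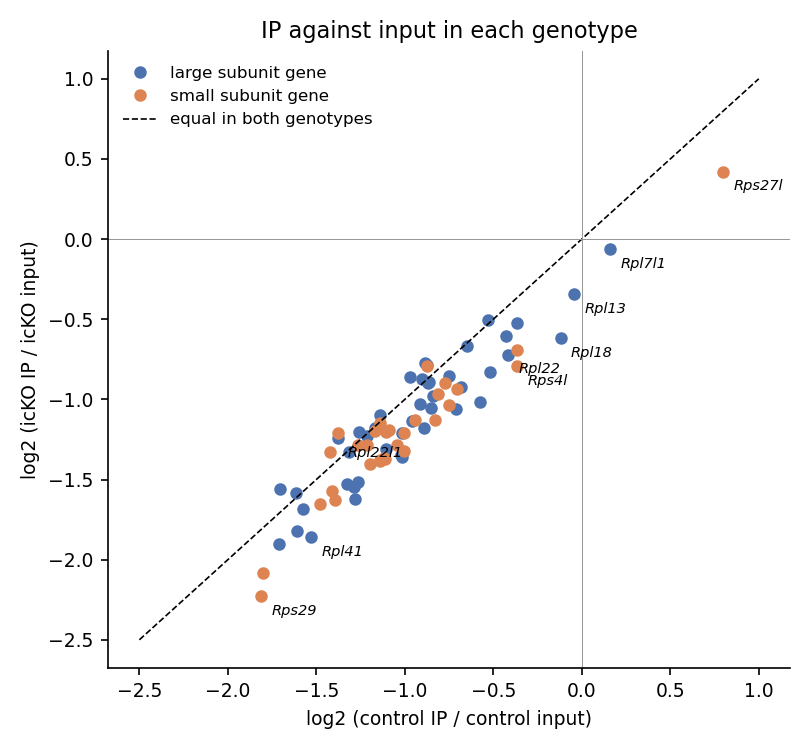
Log2 IP to input ratio of members with at least 100 counts in control (horizontal) and icKO (vertical), coloured by subunit, with a dashed line of equality; both axes use their own input library. Most points lie below 0 on both axes and below the line, as does Rpl18 at -0.12 and -0.62, and Rps27l lies above 0 on both.

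Genes that build or control ribosomes changed in both directions between IPs. Of 59 ribosome biogenesis genes, 12 (20.3%) were lower and 13 (22.0%) higher in icKO, with a median of 0.03, against 25.2% and 22.1% of all genes. With the length trend removed, 9 (15.3%) were lower and 16 (27.1%) higher, against 22.2% and 21.9% of all genes. Ncl, which encodes the nucleolar protein nucleolin, fell by 0.25 (adjusted p = 2.53e-09), Imp3, a component of the small subunit processome, fell by 0.64 (1.54e-05), and Heatr1, needed for rRNA synthesis, rose by 0.41 (6.51e-07). Of 25 regulators of ribosomal protein translation, 8 (32.0%) were lower and 9 (36.0%) higher, with a median of -0.02, and 7 and 6 with the length trend removed. Rps6kb1, which encodes the S6 kinase that phosphorylates the Rps6 protein, rose by 0.31 (adjusted p = 8.77e-05), Mdm4, a p53 inhibitor, rose by 0.50 (1.23e-10), and Mtor, the kinase of mTORC1, rose by 0.09 (0.0276), a call lost with the length trend removed, where it stood at -0.07 (0.0904). Larp1 stood at 0.02 (0.729).

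Of other transcripts known to carry a TOP tract, 18 of 28 (64.3%) were lower and 3 higher, against 25.2% and 22.1% of all genes, with a median of -0.19. With the length trend removed, 9 (32.1%) were lower and 4 (14.3%) higher, against 22.2% and 21.9% of all genes, with a median of -0.04. Tpt1, a growth-related protein gene, fell by 0.45 (adjusted p = 1.83e-12), and Eef1a1, the main elongation factor, fell by 0.23 (1.54e-09). Both were still called with the length trend removed, at -0.25 and -0.12. The 3 that rose were the snoRNA host genes Gas5 (0.33, adjusted p = 9.54e-05) and Snhg1 (0.69, 0.00504), which are non-coding, and Hnrnpa1 (0.60, 0.0383), which encodes a splicing factor. Among the members themselves, those with a tract near a RefSeq start had a median of -0.30 (49 tested) and those without had -0.38 (9 tested). Mitochondrial ribosomal protein genes, which serve another ribosome, fell in 30 of 77 (39.0%) and rose in 2, against 25.2% and 22.1% of all genes, with a median of -0.24. With the length trend removed 13 (16.9%) were lower and 7 higher, with a median of -0.09, against 22.2% and 21.9% of all genes.

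**Figure D5:**
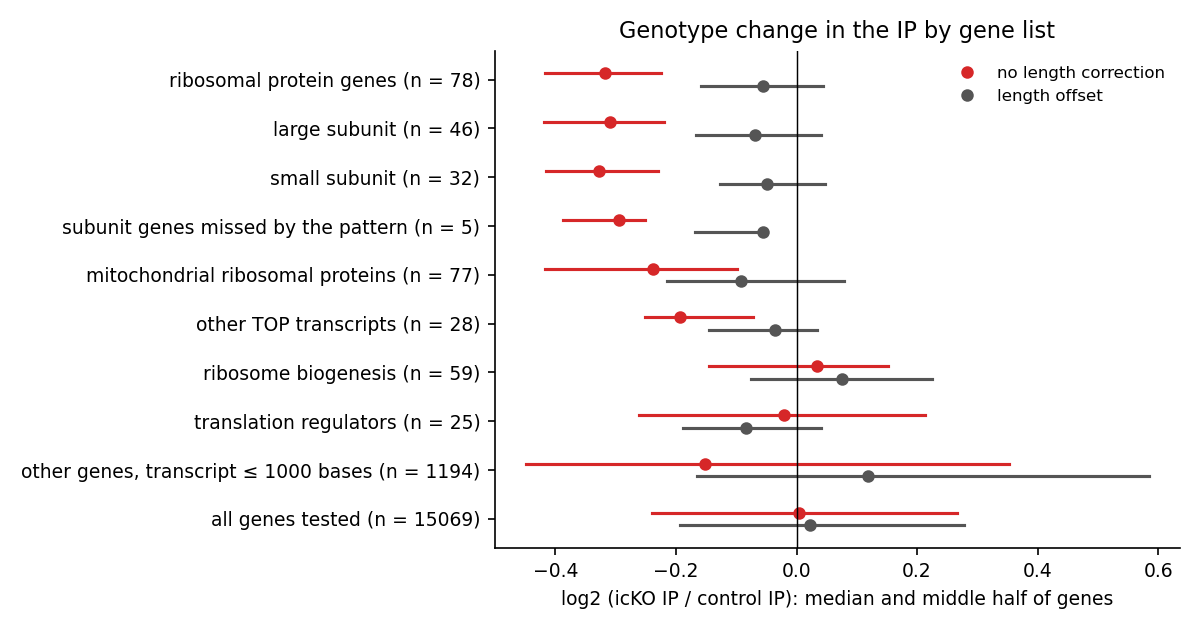
Log2 change between icKO and control IPs for ribosomal protein genes, related lists and all genes tested, as the median (point) and the interquartile range (line), without (red) and with (grey) the length trend removed. The ribosomal protein genes have a median of -0.32 without and -0.06 with the correction, and all genes 0.00 and 0.02.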

How the data were processed

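RNA was measured in 6 libraries. The deposited values are raw counts of reads for each gene symbol, not normalized by the authors; trimming used Trimmomatic 0.39 and alignment to mm10 used STAR 2.7.10b, per the submitters' processing notes. The kit was stranded total RNA (Takara SMARTer Pico v3), per the labels' protocols; the read counter, its annotation, its strand setting and its treatment of duplicates or reads that fit several places were not given in the sources used here. Sample titles gave groups and replicate numbers; a title with cKO was taken as icKO. Of 24421 genes, 10 without a value in the inputs were left out, and 4697 had no count.

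All tests were fitted on the whole table in edgeR 4.0.16 (R 4.3.3): TMM, filterByExpr, quasi-likelihood F test, two-sided, Benjamini-Hochberg adjusted p under 0.05. The IP comparison used the 4 IPs (biological coefficient of variation 3.01%, 2 residual degrees of freedom), IP against input all 6 libraries with genotype as a term, and the interaction 4 groups. The inputs have no test, and their log2 ratios use a prior count of 2. DESeq2 1.42.0, other scalings and filters, a length offset (lowess on GENCODE transcript length, span 0.3), and leaving out each library were alternatives. Copies were found with BLAST 2.17.0. The fits were tested on simulated data. Single-gene results of a few genes are not reported here; these genes remain in the counts and medians. Members, lists and tests were chosen with earlier results of these data known. Genes named by rule were the tag gene, the stalk, Rpsa, Rps6, the paralogs, and the 8 highest and 8 lowest members per comparison and 5 per end of the level order. Other members named, such as Rps15, Rpl31, Rps20 and Rpl10a, and the genes named from related lists were chosen after their values were seen.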

Additional observations from a re-analysis of the deposited data

Results flagged for a closer look

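The genotype change differed between IP and input, by the interaction term of edgeR's quasi-likelihood test, for 24 of the 79 members tested, with 1 input library per genotype. All 24 were lower, against 13.9% lower and 9.67% higher of all genes tested. DESeq2 called 9 lower, against 7.08% of all genes. With the length trend removed 2 were lower and 12 higher, against 13.1% and 9.23% of all genes. The differences, on the log2 scale and as IP minus input, were -0.50 for Rpl18, -0.44 for Rpl28, -0.41 for Rps29, -0.35 for Rpl8, -0.35 for Rplp2, -0.31 for Rpl22 and -0.25 for Rpsa. Of these 7, Rpsa alone was also called with the length trend removed.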

How the results depend on the processing

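Over every alternative run, the members' median between icKO and control IPs stayed negative except with scaling to the mature oligodendrocyte markers. There the members' median was 0.42 with 73 members higher and 0 lower, against 86.3% higher and 0.551% lower of all genes, because that scaling raises genes in general. With the length offset the members' median was -0.056 with 21 lower and 5 higher (-0.061, 21 and 5 with the trend fitted without the members, an alternative chosen after seeing the data), and with library totals -0.40. For IP against input the median was -0.54 with the length offset (5 higher; -0.60 and 4 with the trend fitted without members), -1.21 with library totals, -1.01 in control alone and -1.18 in icKO alone, where 1 member was higher. For the interaction, the length offset gave a median of 0.017 (0.020 with the trend fitted without members) with 2 lower and 12 higher in each case, and library totals gave -0.26. DESeq2 called 9 lower (7.08% of all genes), and a mean of at least 5 CPM gave 1 higher (15.8% of all genes). The share of counts, without the 45S rRNA gene and the spectrins in the total, was 0.6376% in control and 0.4971% in icKO IPs, and with the missed subunit genes 0.6358% and 0.4817%. Beyond what a scaling or fewer genes sets by construction, the cause was not tested.

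Leaving out 1 library at a time, members lower between IPs numbered 60 to 65 and higher 0 to 0, with medians from -0.35 to -0.29. For IP against input 72 to 74 were lower and 0 to 1 higher (Rps27), with medians from -1.18 to -1.02. For the interaction 17 to 25 were lower and 0 to 1 higher (Rps24), with medians from -0.21 to -0.16. Single genes changed sign without 1 library in Rpl22l1 (between IPs -0.032 to 0.29, interaction -0.033 to 0.29), Rpl34 (between IPs -1.94 to 0.60), Rpl7l1 (input to IP -0.066 to 0.16, and -0.062 in icKO alone and -0.031 with library totals) and Rps19 (interaction -0.0024 to 0.20).

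The labels pair no replicate numbers, and deviations of same-numbered control and icKO IPs were uncorrelated (r = -0.00313 over all genes tested between IPs). With the replicate number as a block, 69 members were lower and 0 higher, with a median of -0.32, against 25.7% lower and 22.6% higher of all genes.

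Sign changes, here and without 1 library, were followed only in the tag gene, the stalk, Rpsa, Rps6, the paralogs and each comparison's highest and lowest members. Scaled to the mature oligodendrocyte markers, 66 of the 69 members called lower between IPs were called higher, and 86.3% of all genes were higher. Among the genes followed, those that changed sign were Rpl10 (0.59), Rpl18 (0.15), Rpl22 (0.51), Rpl28 (0.24), Rpl32 (0.22), Rpl34 (0.20), Rpl41 (0.11), Rpl7l1 (0.58), Rpl9 (0.65), Rplp0 (0.47), Rplp1 (0.43), Rplp2 (0.32), Rps15a (0.66), Rps19 (0.61), Rps24 (0.67), Rps26 (0.23), Rps27l (0.51), Rps4l (0.023), Rps6 (0.57) and Rpsa (0.36). With the length offset, and with its trend fitted without members, between-IP changes turned positive in Rpl10 (0.13 and 0.12), Rpl7l1 (0.013 and 0.011), Rpl9 (0.21 and 0.21), Rplp1 (0.042 and 0.036), Rps19 (0.18 and 0.18), Rps24 (0.054 and 0.053), Rps27l (0.12 and 0.11) and Rps6 (0.091 and 0.088). So did the IP to input change in Rpl13 (0.36 and 0.31), Rpl18 (0.25 and 0.19) and Rpl7a (0.029 with the first), and the interaction in Rplp0 (0.0075 and 0.0081) and Rplp1 (0.15 and 0.16). Members not followed in a comparison turned as well, such as Rpl17 between IPs (0.04) and Rpl10 in the interaction (0.20), both with the length offset. With 2 IPs and 1 input per genotype, small changes, members under 100 counts and differences between inputs are limited by depth and replication.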
